A study of Mus musculus with 12 samples.

Results

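Ifi203, Ifi204, Ifi205 and Aim2 are mouse genes of the PYHIN family, also called the Ifi200 or HIN-200 family, and they were followed here through newly made RNA of macrophages with and without lipopolysaccharide (LPS). The 4 genes were listed by symbol and chosen by their measured LPS change in the MPI-2 line, as interferon-linked genes that were still higher there with LPS. That change is therefore given below as a description, without a test. Of the 4, Ifi203, Ifi205 and Aim2 have a probe set that names no other gene, while Ifi204 is named only on a probe set it shares with Ifi211. They were measured among 19937 genes with a probe set of their own, 7 of which are other members of the same family.

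The study comprised 12 whole-transcript arrays, 3 in each of 4 groups. The first group was MPI-2 given LPS and the second was MPI-2 left unstimulated (mock). MPI-2 is 1 line of macrophages from C57BL/6 fetal liver, kept in RPMI with GM-CSF, and arrays of this line are replicates within it, not of separate lines. The third group was bone marrow-derived macrophages (BMM) of C57BL/6 given LPS and the fourth was BMM left unstimulated, both matured outside the animal in DMEM with M-CSF. All 4 groups had 10% fetal calf serum, and all received 4-thiouridine for 60 min, which marks RNA made in that window so that it can be purified. The LPS groups received R-LPS at 0.1 mg/ml, as the labels give the dose, and their labelling began 30 min after LPS. MPI-2 and BMM therefore differ in tissue of origin, growth factor and medium at once, and these cannot be told apart. The titles call the replicates biological but name no separate cultures or animals, and the p-values therefore rest on the spread among these arrays, which may be technical.

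Most PYHIN proteins pair a pyrin domain, which binds other pyrin domains, with a HIN domain, which binds DNA. Aim2 senses double-stranded DNA in the cytosol and, through the adaptor Pycard (ASC), recruits the protease Casp1 into an inflammasome that matures interleukin-1β. Other Ifi200 proteins lie largely in the nucleus and have been tied to transcription, growth arrest and the DNA response, and Ifi204 is often set beside human IFI16. The genes lie in 1 cluster on chromosome 1, and many of them are induced by type I interferon, for which Ifnb1 is the early gene after LPS.

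The sequences before the start sites of the 3 measured members are shown first because the results below set the members' responses beside their promoter letters. Each is the run of 250 bases before the annotated start, 5′ to 3′, from RefSeq on GRCm38.p6. Capitals mark matches, on either strand, to GAAA, any 2 bases and GAAA (the core of the interferon-stimulated response element), to TTC, any 3 bases and GAA (the interferon-γ-activated site) or to GGG, any 5 bases and CC (a loose NF-κB site). Ifi203 has 2 annotated starts and the run before the downstream one is given.
Ifi203 (chr1:173942493-173942742, minus strand): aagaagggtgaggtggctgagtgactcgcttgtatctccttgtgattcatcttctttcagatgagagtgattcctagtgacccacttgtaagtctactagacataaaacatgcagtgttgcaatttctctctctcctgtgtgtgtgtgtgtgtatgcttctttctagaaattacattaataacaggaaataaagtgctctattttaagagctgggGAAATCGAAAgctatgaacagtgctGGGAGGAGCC
Ifi205 (chr1:174031756-174032005, minus strand): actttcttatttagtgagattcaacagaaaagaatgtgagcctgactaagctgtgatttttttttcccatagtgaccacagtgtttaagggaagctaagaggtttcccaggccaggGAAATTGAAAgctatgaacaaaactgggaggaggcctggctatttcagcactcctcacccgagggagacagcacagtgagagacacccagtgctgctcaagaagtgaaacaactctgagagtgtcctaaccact
Aim2 (chr1:173420354-173420603, plus strand): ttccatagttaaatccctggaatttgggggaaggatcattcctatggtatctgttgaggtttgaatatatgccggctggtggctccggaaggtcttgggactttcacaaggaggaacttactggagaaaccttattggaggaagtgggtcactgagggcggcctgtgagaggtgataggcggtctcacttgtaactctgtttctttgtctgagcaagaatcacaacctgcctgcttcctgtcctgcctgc

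Ifi203 held GAAATCGAAA beginning 35 bases before its downstream start. The window of its upstream start held no interferon-response match, and which start these cells use was not tested. Ifi205 held GAAATTGAAA beginning 134 bases before its start, with another match after the start. The 250 bases of Aim2 held none of the 3 motifs. Among 32851 promoter windows of 300 bases (250 before and 50 after a start), 3.44% held the interferon-response letters, 8.3% the interferon-γ-activated letters and 50.8% the NF-κB letters. A match is a run of letters and not a measured site, and its absence speaks only of this window.

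Of the 3 measured members, Ifi203 and Ifi205 had their highest new RNA in BMM with LPS and their lowest in unstimulated MPI-2, and Aim2 moved less and stood at like levels in unstimulated cells of both kinds. All values are log2 array values as deposited, in which a difference of 1 is a doubling. Levels were compared within a probe set and not between genes. The background level was 3.37, below which 95% of 1015 olfactory receptor genes had their mean. Where a gene was under that level in every array of a group, the group has only an upper limit, and a fold against it is given as a lower bound, with each dim array set to the background level.

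Ifi203 is a nuclear PYHIN protein. Its probe set read 8.03, 8.11 and 8.21 in MPI-2 with LPS and 5.0, 5.80 and 5.02 in unstimulated MPI-2. In BMM it read 11.12, 11.06 and 11.38 with LPS and 8.07, 8.90 and 8.88 without. LPS arrays lay above mock arrays in both cell types, and MPI-2 with LPS only came up to the range of unstimulated BMM. In MPI-2 the LPS groups differed by 2.85 ± 0.23 (SE, n = 3 each), a 7.19-fold difference given as a description. In BMM Ifi203 rose with LPS by 2.57 ± 0.23, or 5.94-fold (limma, adjusted p = 4.1e-07), with a 95% interval of 2.08 to 3.05. Averaged over both treatments it was lower in MPI-2 than in BMM by a log2 difference of -3.21 ± 0.16 (limma, adjusted p = 1.1e-10).

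Ifi205 has a pyrin and a HIN domain and is known in macrophages as a gene of the interferon response. It read 7.02, 6.80 and 7.44 in MPI-2 with LPS and 3.31, 3.89 and 3.37 in unstimulated MPI-2. In BMM it read 10.95, 10.80 and 11.75 with LPS and 6.57, 6.15 and 6.80 without. Only 1 of the 3 unstimulated MPI-2 arrays was above background, so that the change from that state has a floor under it. The MPI-2 change was 3.57 ± 0.25 (SE), or 11.9-fold, again as a description. In BMM Ifi205 rose by 4.66 ± 0.25, or 25.3-fold (limma, adjusted p = 1.39e-09), and 16 of the 19937 genes, itself included, had a change at least as large. Its mean level was lower in MPI-2 than in BMM by -3.53 ± 0.17 (limma, adjusted p = 9.18e-11), and no MPI-2 array reached the BMM array of the same treatment.

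Aim2 read 7.70, 7.90 and 8.17 in MPI-2 with LPS and 7.20, 7.19 and 7.19 in unstimulated MPI-2. In BMM it read 8.08, 8.21 and 9.03 with LPS and 6.84, 7.26 and 7.36 without. The mock arrays of MPI-2 lay inside the range of the mock arrays of BMM, and the LPS arrays of the cell types overlapped. The MPI-2 change was 0.73 ± 0.21 (SE), or 1.66-fold, as a description. In BMM Aim2 rose by 1.29 ± 0.21, or 2.44-fold (limma, adjusted p = 0.000251). Its mean level differed between MPI-2 and BMM by -0.24 ± 0.15 (limma, adjusted p = 0.182), with an interval of -0.56 to 0.08. That call depends on the scaling, since after cyclic loess the difference was -0.68 (limma, adjusted p = 0.00199) and after a further quantile normalization it was -0.49 (limma, adjusted p = 0.0116).

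**Figure D1:**
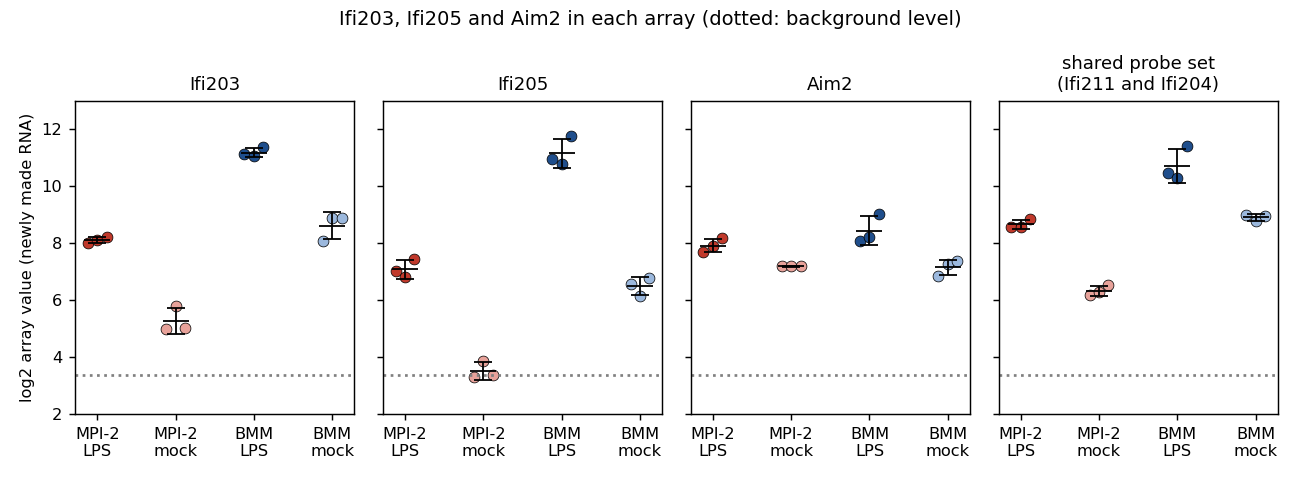
Log2 array values of Ifi203, Ifi205, Aim2 and the probe set shared by Ifi204 and Ifi211, by group (MPI-2 LPS, MPI-2 mock, BMM LPS, BMM mock); each point is 1 array, bars are the mean and SD, and the dotted line is the background level of 3.37. Ifi203 and Ifi205 are lowest in MPI-2 mock, with means of 5.27 and 3.52, while Aim2 means in the mock groups are 7.19 in MPI-2 and 7.15 in BMM.

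All 3 members rose in BMM, where 10.3% of all genes did, but they were chosen with earlier results of these data known. In BMM 15.6% of all genes, and in MPI-2 16.6%, had every LPS array above every mock array, as the 3 members had in both. In MPI-2 5.17% of all genes were called higher, a share that the choice of the members leaves nothing to be read from. Ifi203 and Ifi205 were lower in mean level in MPI-2, as were 32.3% of all genes, and for both every MPI-2 array lay below every BMM array of the same treatment, as held for 16.4% of all genes. A difference in mean level in either direction was called for 57.3% of all genes, and Aim2 was not among them. The array platform reads a pool of cells, and fewer cells of a type and less RNA per cell cannot be told apart.

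The gap between the cell types is given for each treatment as a description. For Ifi203, MPI-2 minus BMM was -3.07 with LPS and -3.34 in mock cells. For Ifi205 it was -4.08 with LPS and -2.99 in mock cells. For Aim2 it was -0.52 with LPS and 0.04 in mock cells. Ifi203 and Ifi205 were thus far lower in MPI-2 under both treatments, and Aim2 was not. The LPS change in MPI-2 minus that in BMM was 0.28 ± 0.32 for Ifi203, -1.09 ± 0.35 for Ifi205 and -0.55 ± 0.30 for Aim2 (SE).

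BMM with LPS replicate 3 was the highest array of its group for 9 of the 10 family genes with their own probe set, while it was highest for 35.0% of all genes. Among the 9 was Ifi202b, under background in every array, where replicate 3 stood only 0.06 above the next. For Aim2 it stood 0.81 above the next array and for Ifi205 0.80. Without it the BMM rise was 2.47 for Ifi203, 4.37 for Ifi205 and 0.99 for Aim2 (limma, adjusted p = 0.000338 for Aim2). The mean level of Aim2, MPI-2 minus BMM, was then -0.09 (limma, adjusted p = 0.488) and its difference of changes -0.26.

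Ifi204, a nuclear and nucleolar PYHIN protein, could not be separated from Ifi211. Their shared probe set averaged 8.67 ± 0.17 in MPI-2 with LPS and 6.33 ± 0.18 in unstimulated MPI-2 (SD, n = 3 each). In BMM it averaged 10.72 ± 0.60 with LPS and 8.91 ± 0.11 without. The changes with LPS were 2.33 in MPI-2 and 1.81 in BMM, and neither belongs to Ifi204 alone.

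The 7 other family genes with a probe set of their own show how the listed members sit in their family, and 5 of them rose in BMM but were at background in MPI-2. In BMM the test called 7 of 7 higher with LPS against 10.3% of all genes, with a median change of 3.60 against 0.04 over all genes. Of the 7, Ifi202b was under background in all 12 arrays and has no measured change, which leaves 6. The count was 5 after cyclic loess, after quantile normalization again, with array weights and with the BMM arrays alone. It was also 5 with replicate 1 of BMM mock or replicate 3 of BMM LPS left out. Among genes above background it was 5 as well, but that filter removed Ifi202b and Ifi214 before the test, and no call was lost. In MPI-2 1 of 7 rose, against 5.17% of all genes, and the median was -0.01 against 0.02. The LPS change was smaller in MPI-2 for 5 of 7, against 6.27% of all genes, and larger for 1, against 7.08%. In mean level 7 of 7 were called lower in MPI-2, against 32.3% of all genes, again with Ifi202b under background throughout.

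Ifi214 encodes a protein of the same family whose function is little known. It read 2.15, 1.95 and 2.05 in MPI-2 with LPS and 1.91, 2.15 and 2.30 in unstimulated MPI-2. In BMM it read 6.18, 6.88 and 6.64 with LPS and 2.58, 2.62 and 2.36 without. Only the BMM arrays with LPS were above background. With LPS it was at least 9.18-fold higher in BMM than in unstimulated BMM (limma, adjusted p = 8.06e-11). The fitted values, a BMM change of 4.05 and a difference of changes of -4.12 (limma, adjusted p = 1.77e-08), were taken against arrays under background.

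Ifi208 rose in BMM by 4.12 (limma, adjusted p = 8.23e-10), to 7.59 ± 0.41 with LPS against 3.47 ± 0.27 in mock cells. Only 1 of its BMM mock arrays was above background, so that this change has a floor under it. Ifi206 rose in BMM by 3.69 (limma, adjusted p = 2.03e-09), to 8.07 ± 0.55 with LPS against 4.38 ± 0.017 in mock cells. Ifi213 rose by 3.60 and Ifi209, the mouse gene also called Pyhin1, by 3.42 (limma, adjusted p = 7.3e-09 and 8.17e-08). None of the 6 MPI-2 arrays was above background for Ifi206, Ifi208, Ifi209, Ifi213 or Ifi214, which held for 37.8% of all genes, so that they have no measured change in MPI-2. With LPS they were lower in MPI-2 than in BMM by at least 25.9-fold for Ifi206, 18.6-fold for Ifi208, 65.6-fold for Ifi209, 113-fold for Ifi213 and 9.18-fold for Ifi214. The fitted differences of their LPS changes, MPI-2 minus BMM, lay between -4.12 and -3.48, and each passed the test, with the MPI-2 side under background.

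Ifi207 went the other way. It read 9.69, 9.49 and 9.88 in MPI-2 with LPS and 8.07, 8.24 and 7.99 in unstimulated MPI-2. In BMM it read 11.54, 11.47 and 11.97 with LPS and 10.58, 10.97 and 11.35 without. It rose in MPI-2 by 1.59 ± 0.19 (limma, adjusted p = 2.35e-05) and in BMM by 0.69 ± 0.19 (limma, adjusted p = 0.0118). The BMM call was lost after cyclic loess (0.38, adjusted p = 0.116), after quantile normalization again (0.33, adjusted p = 0.334), without BMM mock replicate 1 (0.50, adjusted p = 0.053) and without BMM LPS replicate 3 (0.54, adjusted p = 0.0519). The change was larger in MPI-2 by 0.89 ± 0.26 (limma, adjusted p = 0.0353), a call lost without any 1 of 8 arrays, namely replicates 1 and 3 of MPI-2 LPS, 1 and 3 of MPI-2 mock, 1 and 2 of BMM LPS and 2 and 3 of BMM mock (0.70 to 0.89, adjusted p from 0.0603 to 0.103).

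Ifi202b, an Ifi200 gene whose protein has HIN domains and no pyrin domain, was under background in all 12 arrays. Its BMM change of 0.35 (limma, adjusted p = 0.0249) was therefore within the range of probes with no signal. That call was lost without BMM mock replicate 1 (0.33, adjusted p = 0.0565) or 2 (0.34, adjusted p = 0.0551) and without BMM LPS replicate 1 (0.34, adjusted p = 0.0515) or 3 (0.31, adjusted p = 0.064). It was also lost after cyclic loess (0.23, adjusted p = 0.101), after quantile normalization again (0.26, adjusted p = 0.067), with array weights (0.32, adjusted p = 0.098) and with the BMM arrays alone (0.35, adjusted p = 0.136).

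**Figure D2:**
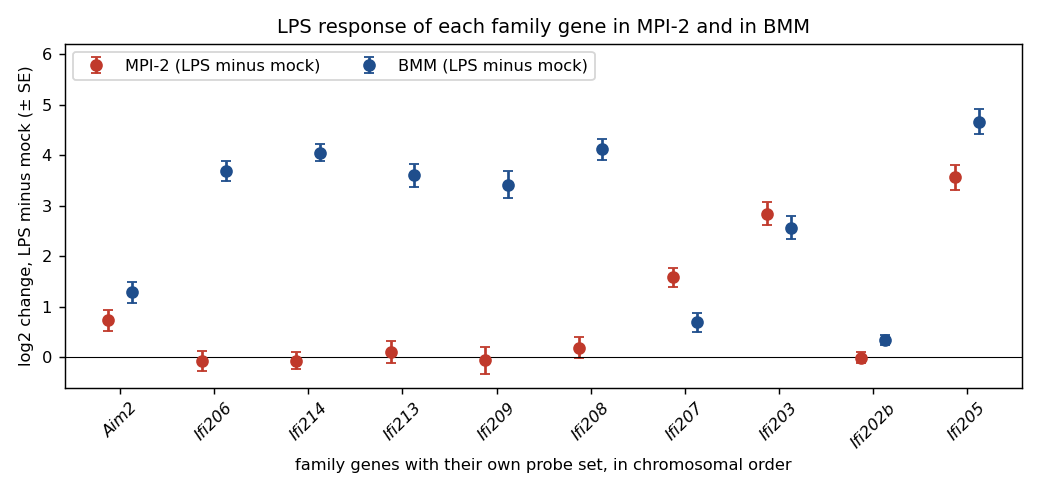
Log2 change with LPS (LPS minus mock, with SE) of the 10 family genes with their own probe set, MPI-2 beside BMM, in chromosomal order. Ifi206, Ifi214, Ifi213, Ifi209 and Ifi208 lie between 3.42 and 4.12 in BMM and, from arrays all under background, between -0.07 and 0.19 in MPI-2, while Ifi203 and Ifi205 have 2.85 and 3.57 in MPI-2.

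In their order along chromosome 1 (RefSeq, GRCm38.p6) the genes that were higher with LPS in MPI-2, apart from Aim2, lay at one end of the cluster. The order runs Aim2, Ifi206, Ifi214, Ifi213, Ifi209, Ifi208, Ifi207, Ifi204, Mndal, Ifi211, Ifi203, Ifi202b and Ifi205. The 5 genes at background in MPI-2 fill the stretch between Aim2 and Ifi207. Ifi207, the shared probe set of Ifi204 and Ifi211, Ifi203 and Ifi205 follow, with Ifi202b at background among them. No probe set was matched to Mndal, so its RNA was not measured here, and only its promoter windows were searched.

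Of the 6 olfactory receptor genes next beyond Ifi205, 3 changed with LPS in at least 1 cell type, and they are named here after their values were seen. Olfr430, Olfr429 and Olfr427 did not pass in either cell type (limma, adjusted p from 0.5 to 0.954). Olfr433, the first gene past Ifi205, rose at least 2.93-fold in MPI-2 (limma, adjusted p = 3.03e-06), to 4.92 ± 0.32 with LPS against 3.14 ± 0.15 in mock cells, where it was under background. Olfr432, the next, rose at least 2.37-fold in MPI-2 (limma, adjusted p = 1.1e-07). Their BMM changes were 0.27 (limma, adjusted p = 0.294) and 0.51 (limma, adjusted p = 0.0178), the last lost when replicate 2 or 3 of BMM mock or replicate 1 of BMM LPS was left out (adjusted p from 0.0518 to 0.0856). Olfr231, farther along, rose at least 3.53-fold in BMM (limma, adjusted p = 6.6e-09) and was under background in all 6 MPI-2 arrays. Olfactory receptors detect odours in the nose, and these 3 genes belong to the set from which the background level was taken.

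**Figure D3:**
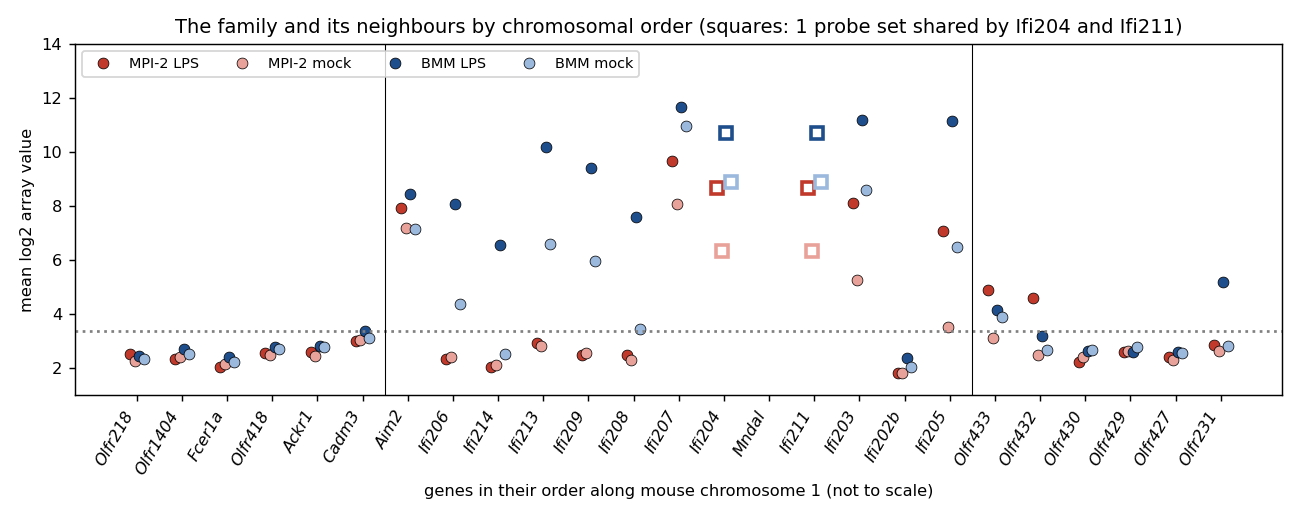
Mean log2 array value of each family gene and of 6 genes on either side, in their order along chromosome 1 and not to scale; circles are probe sets of 1 gene, open squares the probe set shared by Ifi204 and Ifi211 (drawn at both), and the dotted line is the background level of 3.37. In MPI-2 the 5 genes from Ifi206 to Ifi208 lie under the line with and without LPS, and Ifi207, Ifi203 and Ifi205 lie above it with LPS.

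The interferon-response letters alone do not divide the family in the same way, though the bases just before them differ between the genes shown first and last below. Shown are 34 bases around the interferon-response letters, whose match is in capitals, in the genes called or described as higher with LPS in MPI-2 (Ifi211 through the shared probe set) and then in the genes at background there.
Ifi207 (chr1:173741829-173741862, minus strand): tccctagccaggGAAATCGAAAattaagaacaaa
Ifi211 (chr1:173913062-173913095, minus strand): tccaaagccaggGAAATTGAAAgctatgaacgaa
Ifi203 (chr1:173942506-173942539, minus strand): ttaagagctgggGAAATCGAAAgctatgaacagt
Ifi205 (chr1:174031868-174031901, minus strand): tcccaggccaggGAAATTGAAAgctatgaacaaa
Ifi206 (chr1:173491337-173491370, minus strand): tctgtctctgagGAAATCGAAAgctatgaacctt
Ifi214 (chr1:173536015-173536048, minus strand): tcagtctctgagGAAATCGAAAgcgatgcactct
Ifi213 (chr1:173599324-173599357, minus strand): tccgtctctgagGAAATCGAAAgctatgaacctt
Ifi208 (chr1:173673595-173673628, plus strand): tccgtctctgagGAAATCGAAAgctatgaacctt
Ifi209 (chr1:173630768-173630801, plus strand): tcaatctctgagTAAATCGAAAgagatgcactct

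GAAATCGAAA stood before Ifi207 and Ifi203 and also before Ifi206, Ifi214, Ifi213 and Ifi208, which were at background in MPI-2. In Ifi209 the capitals mark the bases that align with the match of Ifi214. Counted from 1 at the 5′ end of the 34 bases, Ifi209 differs from Ifi214 there by G13T, which ends the match, and by G4A and C24A outside it, and it rose in BMM all the same. The 250-base runs of Ifi214 and Ifi209 are 94.4% identical, those of Ifi213 and Ifi208 87.9% and those of Ifi206 and Ifi208 86.2%. Between these groups the runs are unlike, with 48.8% for Ifi206 and Ifi214 and 50.9% for Ifi209 and Ifi208, so the 5 genes at background in MPI-2 fall into 2 kinds of promoter run. Ifi207 and Ifi211 are 85.0% identical over this run.

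One set of letters lay beside the match. In Ifi206, Ifi214, Ifi213 and Ifi208 the letters GAGGAA, a core of sites for the macrophage factor PU.1, overlapped the first 3 bases of the match, and none of the windows of Ifi207, Ifi211, Ifi203 and Ifi205 held GAGGAA. Ifi209, at background in MPI-2 as well, held none either. It is in 28.3% of all promoter windows, and Aim2 held it at 2 places. The runs of Ifi206, Ifi213 and Ifi208 are 75.6% to 87.9% identical, so their matches are not separate occurrences, and the comparison was made after the values were seen. Whether any factor binds there was not tested.

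**Figure D4:**
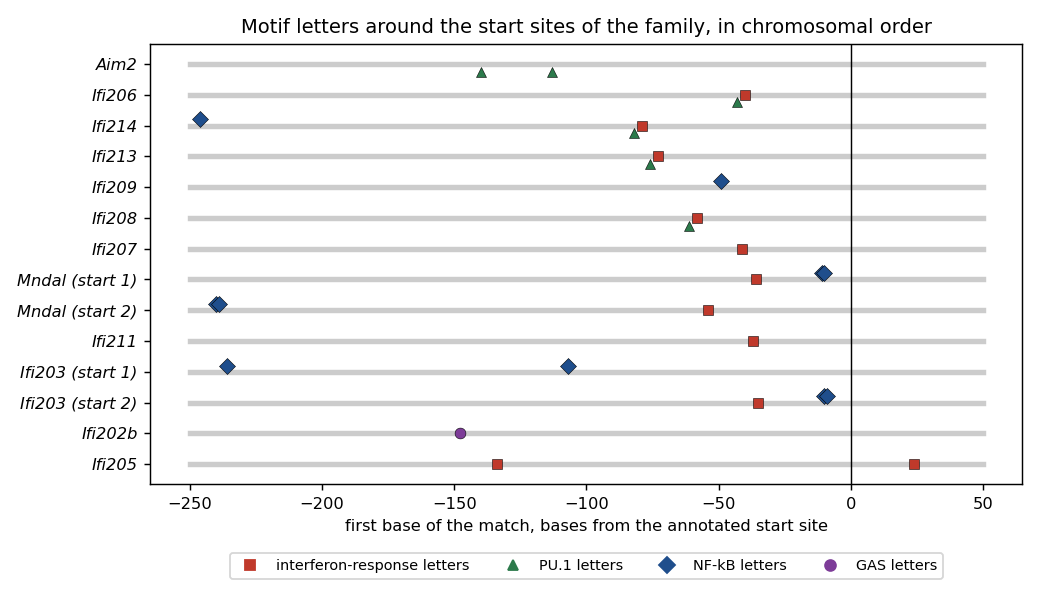
Places of the motif letters in the windows of 250 bases before and 50 after each annotated start of the family, in chromosomal order; each symbol is the first base of a match on either strand, by distance from the start in bases. The interferon-response letters are in windows of genes higher with LPS in MPI-2 (Ifi207, Ifi203 at its downstream start, Ifi205). They are also in those of genes at background there (Ifi206, Ifi214, Ifi213, Ifi208), and in neither Aim2 nor Ifi209.

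Among 46 interferon genes, made up of 36 effectors and the 10 family genes, Ifi205 and Ifi203 had the second and the third largest LPS change in MPI-2 and Aim2 the 14th, between Oasl1 at 0.80 and Gbp7 at 0.63. These places follow from how the members were chosen. All 36 effectors rose in BMM, as did 10.3% of all genes, with a median change of 2.18 against 0.04 over all genes. In MPI-2 11 rose (5.17% of all genes rose), 7 fell (9.58% of all genes fell) and 18 did not pass the test. The MPI-2 median was -0.02 against 0.02. Cxcl10, a chemokine that draws T cells, rose in MPI-2 by 4.92 (limma, adjusted p = 2.48e-11) and in BMM by 2.13 (limma, adjusted p = 1.48e-07). It averaged 12.06 with LPS and 7.14 without in MPI-2, against 12.55 and 10.41 in BMM. The highest value of any probe set was 12.82, and whether the top of the scale limits its BMM rise was not tested. Ifih1, the RNA sensor MDA5, rose by 2.66 in MPI-2 and 3.57 in BMM. Mx2, an antiviral GTPase, rose in BMM by 5.04 (limma, adjusted p = 1.78e-12) and was under background in all 6 MPI-2 arrays. Gbp5, a guanylate-binding protein, rose at least 2.53-fold in MPI-2 and by 6.31 on the log2 scale in BMM. Irgm1, a GTPase of defence against vacuolar microbes, fell by 1.06 in MPI-2 (limma, adjusted p = 7.21e-05) and rose by 2.20 in BMM.

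**Figure D5:**
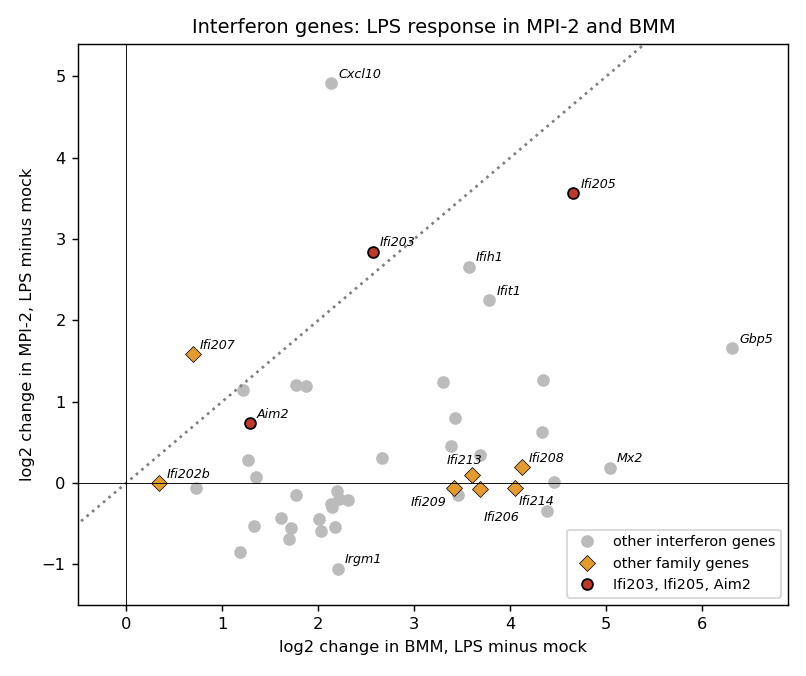
Log2 change with LPS of the interferon genes, in MPI-2 on the vertical axis and in BMM on the horizontal axis; each point is 1 gene, and the dotted line marks equal changes. Ifi203 (2.85 in MPI-2 and 2.57 in BMM) lies by the line, and Ifi205 (3.57 and 4.66) and Aim2 (0.73 and 1.29) lie under it. Ifi202b and the 5 other family genes whose MPI-2 arrays were all under background lie between -0.07 and 0.19 in MPI-2.

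Genes of interferon signalling, feedback genes included, were called more often in BMM by count, as were all genes. The difference was not tested as such. Of 18 signalling genes 4 rose and 3 fell in MPI-2, against 5.17% and 9.58% of all genes. In BMM 10 rose and 3 fell, against 10.3% and 15.4% of all genes. Ifnb1, the gene of interferon-β, averaged 2.71 ± 0.11 in MPI-2 with LPS and 2.56 ± 0.21 in unstimulated MPI-2, both under background. In BMM it averaged 8.96 ± 0.66 with LPS and 2.84 ± 0.26 without, the last also under background. In BMM it rose at least 48.2-fold (limma, adjusted p = 6.22e-11), and in MPI-2 it has no measured change. Ifi203 and Ifi205 were higher with LPS than without in the same MPI-2 arrays. Whether interferon-β has a part in their levels was not tested. Socs1, an inhibitor of JAK kinases, rose in BMM by 3.34 and changed by -0.35 in MPI-2 (limma, adjusted p = 0.613). Socs3 rose by 1.42 in MPI-2 (limma, adjusted p = 0.000368) and 2.59 in BMM. Jak1 rose by 0.76 in MPI-2 (limma, adjusted p = 0.000444) and 0.62 in BMM. Irf2 changed by -0.87 in MPI-2 (limma, adjusted p = 0.000435) and -0.32 in BMM (limma, adjusted p = 0.121). Ifngr2 changed by -0.26 in MPI-2 (limma, adjusted p = 0.36) and -1.06 in BMM (limma, adjusted p = 7.78e-05). Irf2 in BMM and Ifngr2 in MPI-2 passed after quantile normalization again.

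Of 19 NF-κB targets and feedback genes 17 rose in MPI-2, against 5.17% of all genes, and 17 in BMM, against 10.3%. Their median changes were 1.30 in MPI-2 and 1.50 in BMM. Ccl4, a chemokine, rose by 5.0 in MPI-2 and 4.24 in BMM. Ptgs2, the inducible cyclooxygenase, rose by 4.16 in MPI-2 and 4.12 in BMM.

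Among 22 DNA-sensing genes, 3 rose and 6 fell in MPI-2, against 5.17% and 9.58% of all genes. In BMM 8 rose and 6 fell, against 10.3% and 15.4% of all genes. Zbp1, a sensor of Z-form nucleic acid, rose in BMM by 2.56 (limma, adjusted p = 4.05e-08) and changed by -0.26 in MPI-2 (limma, adjusted p = 0.479). Trex1, an exonuclease that clears cytosolic DNA, rose by 0.88 in MPI-2 (limma, adjusted p = 0.0109) and by 1.18 in BMM (limma, adjusted p = 0.000656). Ikbke, a kinase beside Tbk1, rose by 1.29 in MPI-2 and 2.55 in BMM. Samhd1, which depletes nucleotides, fell by 2.18 in MPI-2 (limma, adjusted p = 1.19e-06) and rose by 1.01 in BMM (limma, adjusted p = 0.000851). Dnase2a changed by -0.28 in MPI-2 (limma, adjusted p = 0.337) and by -1.43 in BMM (limma, adjusted p = 4.64e-06).

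Of 18 inflammasome genes, 6 rose and 4 fell in MPI-2, against 5.17% and 9.58% of all genes. In BMM 9 rose and 3 fell, against 10.3% and 15.4% of all genes. Casp1 and Pycard were singled out as the partners of Aim2 and not by the rule for named genes, after values of these data were seen. Casp1 averaged 5.93 ± 0.19 in MPI-2 with LPS and 5.85 ± 0.23 in unstimulated MPI-2, and 8.50 ± 0.47 in BMM with LPS and 6.61 ± 0.39 in unstimulated BMM. It rose in BMM by 1.90 (limma, adjusted p = 9.94e-06), its MPI-2 change was 0.08 (limma, adjusted p = 0.913), and the changes differed by -1.81 (limma, adjusted p = 0.00105). Pycard changed by -0.55 in MPI-2 (limma, adjusted p = 0.0142), a call lost without replicate 1 of MPI-2 LPS (-0.48, adjusted p = 0.0773) or of MPI-2 mock (-0.48, adjusted p = 0.0823). In BMM Pycard changed by -0.40 (limma, adjusted p = 0.0517), which passed without BMM mock replicate 2 (-0.49, adjusted p = 0.0316) or without BMM LPS replicate 3 (-0.51, adjusted p = 0.0142). Il1b, the cytokine that Casp1 matures, rose by 1.75 in MPI-2 and 2.44 in BMM, and Il1rn, the receptor antagonist, by 1.81 in MPI-2 and 2.65 in BMM. Txnip changed by -1.20 in MPI-2 (limma, adjusted p = 4.86e-06) and by -1.67 in BMM (limma, adjusted p = 5.14e-08).

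The genes most like each member over the 12 arrays were found by the root mean square difference of the log2 values, each gene centred on its own mean. Nearest to Ifi203 were Lacc1, a gene of macrophage metabolism, at 0.34, Fnbp1l, which shapes membranes with actin, at 0.44 and the miRNA gene Mir222 at 0.56. Nearest to Ifi205 were Ptgs2 at 0.44, Tnfsf9, the ligand of 4-1BB, at 0.57 and the chemokine Ccl5 at 0.62. Nearest to Aim2 were Wdr48, a cofactor of deubiquitinases, at 0.20, Dock10 at 0.20 and the zinc-finger gene Zfp281 at 0.21. Ifi203 and Ifi205 stood 0.86 apart, and Aim2 stood 1.74 from Ifi203 and 2.28 from Ifi205. No neighbour is given a p, since all share the same 12 arrays.

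All 13 macrophage markers measured, among them Csf1r, Adgre1 and Cd68, were above background in every array of the 4 groups. Of 10 neutrophil markers, 4 were above it in all arrays of MPI-2 LPS, 3 of MPI-2 mock, 1 of BMM LPS and 2 of BMM mock, and their summed values ran from 34.7 to 35.6, 31.8 to 32.0, 29.2 to 31.1 and 30.0 to 30.9 in the same groups. Of 7 T and NK cell markers 1 was above background in each group, and B cell, dendritic, mast and erythroid markers had at most 2. The part of these in the results was not tested. Replicate arrays correlated across genes at 0.994 to 0.996 within the MPI-2 groups and at 0.975 to 0.989 within the BMM groups.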

How the data were processed

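Newly made RNA, marked with 4-thiouridine, was measured on 12 whole-transcript arrays in 4 groups of 3, taken from the sample labels. The authors deposited log2 values per probe set, made with RMA and affy per the submitters' processing notes; their versions are not stated there. RMA normalizes across arrays before it summarises probes, so that each value is relative to the rest of its array. Whether 1 run of RMA covered the 12 arrays is unknown, and their interquartile ranges differ by group, which bears on every MPI-2 minus BMM level. Of 34760 probe sets, 21640 name 1 gene and 1321 several; each gene was taken from whichever of its probe sets averaged highest across all 12. The platform annotation supplied the names, updated through RefSeq of GRCm38.p6.

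limma 3.58.1 (R 4.3.3) fitted the 4 group means jointly to the 12 arrays, and p-values were adjusted by Benjamini-Hochberg over 19937 genes at a threshold of 0.05, without a filter on low values. The scripts were tested on simulated data. Tests of the members were kept to the LPS response in BMM and the mean level between the cell types. The choice of the members rested on the MPI-2 change, but earlier results of these data were known when it was made. These p-values may therefore not be independent of the choice. Intervals are at 95%. Promoters came from RefSeq (GRCm38.p6), in which 12 of 13 family genes looked up had an entry, and identities from Biopython 1.88. The members and gene lists were chosen with earlier results of these data known.

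The text names the members, the other family genes with their own probe set, up to 2 genes of each list with the largest rise and 1 with the largest fall in each LPS comparison, and the 3 nearest profiles of each member. Other genes named are said to be chosen after their values were seen. Alternatives were cyclic loess, quantile normalization again, the mean of a gene's probe sets, a filter on low values, array weights, arrays of 1 cell type, a replicate block, and leaving out arrays. Precision is limited by the number of arrays, since there is no depth of reads.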

Additional observations from a re-analysis of the deposited data

Results flagged for a closer look

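Each of the following genes had an LPS change that differed between MPI-2 and BMM by the test of the difference itself (limma, adjusted over all genes); values are the MPI-2 change minus the BMM change on the log2 scale. In the family the differences were -3.76 for Ifi206, -3.93 for Ifi208, -3.48 for Ifi209, -3.50 for Ifi213, -4.12 for Ifi214 and 0.89 for Ifi207. For the first 5 of these the MPI-2 arrays were all under background. So were the unstimulated BMM arrays for Ifi214, and all but 1 of them for Ifi208. The differences of these 5 genes are therefore fitted values and not sizes of a measured difference. The call of Ifi207 was lost when any 1 of the arrays named for it above was left out (limma, adjusted p from 0.0603 to 0.103).

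Among interferon and sensing genes they were -5.97 for Ifnb1, -2.82 for Zbp1, -1.26 for Ikbke, -3.19 for Samhd1, -4.85 for Mx2 and -4.66 for Gbp5. They were -0.91 for Ifih1, -3.26 for Irgm1 and 2.79 for Cxcl10. Socs1 (-3.69), Socs3 (-1.17), Dnase2a (1.15) and Ifngr2 (0.80) passed as well. The calls of Socs3 and Ifngr2 were lost in some alternative runs. The value of Ifnb1 rests on MPI-2 and unstimulated BMM arrays under background, that of Mx2 on MPI-2 arrays under it and that of Gbp5 on unstimulated MPI-2 arrays under it. Cxcl10 was higher in unstimulated BMM than in unstimulated MPI-2, and with LPS it was lower in MPI-2. Among inflammasome genes the differences were -1.81 for Casp1 and -0.84 for Il1rn. Among the olfactory receptor genes past Ifi205 they were 1.51 for Olfr433, 1.60 for Olfr432 and -2.14 for Olfr231, which were singled out after their values were seen and were each under background in at least 1 group. A search for single outlying arrays does not apply to groups of 3.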

How the results depend on the processing

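No difference past the test and no fitted difference of a member changed sign under any alternative run, but small ones that did not pass did, such as the MPI-2 change of Casp1 (-0.01 to 0.21 with 1 array left out) and the difference of Ptgs2 (-0.05 to 0.15). The BMM rises of Ifi203, Ifi205 and Aim2 and the lower mean levels of Ifi203 and Ifi205 in MPI-2 passed in every setting. With 1 array left out the BMM rise was 2.30 to 2.71 for Ifi203, 4.37 to 4.84 for Ifi205 and 0.99 to 1.46 for Aim2, and the MPI-2 change was 2.71 to 3.11, 3.39 to 3.75 and 0.61 to 0.84 for the same genes. The mean level of Aim2 passed after cyclic loess (-0.68) and after quantile normalization again (-0.49), against -0.24 as deposited. These scalings moved the median MPI-2 minus BMM of all genes in mock cells the other way, to -0.01 against -0.10 as deposited. The difference of LPS changes was 0.68 for Ifi203 after quantile normalization again, and 0.65 for Ifi203 and -0.10 for Aim2 with replicate 1 of BMM mock and replicate 3 of BMM LPS both left out. With the arrays of 1 cell type alone, 1321 genes rose in BMM, against 2053 in the fit to all arrays, and 1854 in MPI-2, against 1031; with array weights 1940 rose in MPI-2. The cause was not tested. Of the other family genes 5 to 7 rose in BMM and 1 in MPI-2 with any 1 array left out. A fit with the replicate number as a block changed no call of a member or of another family gene, with 2035 genes higher in BMM and 1058 in MPI-2, and adjusted p = 3.69e-05 for Aim2 in BMM in limma; same-numbered arrays correlated at -0.154 to 0.242, so the numbers were not taken as pairs. The spread of values differed between groups as deposited (interquartile range 3.10 to 3.22 in MPI-2 LPS, 3.27 to 3.47 in MPI-2 mock, 2.34 to 2.74 in BMM LPS and 2.80 to 2.93 in BMM mock). Genes under the background level, such as 5 family genes in MPI-2, have no measured change there.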
